A study of Mus musculus with 2 samples.

Results

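Cxcr6-positive T cells without CD8 were described in a droplet single-cell RNA-seq matrix of mouse liver. A barcode was counted as such a cell when it held at least 1000 unique molecular identifiers (UMIs, each marking 1 captured RNA molecule), at most 25% of UMIs from mitochondrial genes, at least 2 UMIs of Cd3d, Cd3e and Cd3g together and at least 1 UMI of Cxcr6. It also had to hold 0 UMIs of Cd8a, Cd8b1 and Cd79a and fewer than 5 UMIs of C1qa, C1qb and C1qc together. This chose 677 of 32316 barcodes, 316 with the barcode suffix 1 and 361 with the suffix 2. Of the barcodes within the UMI and mitochondrial limits, they made up 3.80% (95% interval 3.40% to 4.23%) of 8320 for suffix 1 and 7.72% (6.97% to 8.52%) of 4676 for suffix 2. Because Cd3 genes, Cxcr6, CD8 genes, Cd79a and C1q genes chose the cells, their levels below are a description of the choice.

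The labels name 1 Cebp KO and 1 Cebp WT liver sample, both from mice on a 40% HFCFD (high-fat, high-cholesterol, high-fructose diet) for 2 weeks, a diet that promotes steatohepatitis. In the study the gene Cebpa, a hepatocyte transcription factor, was deleted in hepatocytes with a Cre driven by the albumin promoter in Cebpa fl/fl mice, so the T cells were not the target of the deletion. The study used male mice on a C57BL/6N background, and which of its constitutive and inducible Cre lines this sample carried is not in the labels. The paper describes constitutive knockout mice on this diet for 2 weeks, but its main text does not name the line for the single-cell data. Cells from perfused and digested liver were purified on 35% Percoll, and each sample was run on its own 10x 3' v3.1 lane. The labels do not say which suffix belongs to which sample, so knockout and wild type were not compared, and the suffixes are given side by side as libraries of unknown genotype, with 1 library each and no replicate.

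The libraries differed before any cell was chosen: the median barcode had 4.07% mitochondrial UMIs with suffix 1 and 41.3% with suffix 2, and 48.1% and 31.2% of barcodes were within the limits. The chosen cells held 1898726 UMIs with suffix 1 and 1943378 with suffix 2, and the median cell had 4795 and 4322 UMIs from 2004 and 1826 genes. Median mitochondrial shares were 3.30% and 4.40%. Cebpa itself had 4 and 38 UMIs in them, or 2.11 and 19.6 CPM (UMIs per 1000000 UMIs of a class and library). Alb-rich droplets, those of 5000 or more UMIs with at least 50 of the hepatocyte gene Alb, held Cebpa at 1.75 and 105 CPM. Throughout, the value for suffix 1 is given before that for suffix 2. Since neither suffix carries a genotype label, these values check no label here. Of 81 barcode sequences that occurred with both suffixes, none was a chosen cell with both.

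CXCR6 is a chemokine receptor whose ligand CXCL16 is displayed in the liver sinusoids, and it holds patrolling lymphocytes in the liver. NKT cells are T cells that carry a nearly invariant T cell receptor for lipid antigens on CD1d, depend on the transcription factor PLZF (the product of Zbtb16), and are abundant in mouse liver. They keep ready-made cytokine transcripts such as Il4 and can activate antigen-presenting cells through CD40 ligand, the product of Cd40lg. Other liver T cells, among them memory-type CD4 T cells and gamma-delta T cells, can also express Cxcr6.

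T cell receptor genes were high in the chosen cells and close to 0 in B cells, which should lack them. Trbc2, a constant region of the receptor beta chain, reached 996 CPM (95% interval 952 to 1042) and 1026 CPM (982 to 1072), while B cells held 11.8 and 8.75 CPM. Trac, the constant region of the alpha chain, was at 332 and 315 CPM and had 0 UMIs in B cells and in NK or ILC1 cells. A UMI of Trac was seen in 74.0% and 70.9% of the chosen cells, and one of Trbc2 in 95.9% and 94.2%. Cd3e, a chain of the signalling complex and part of the rule, was at 437 and 382 CPM.

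The markers named for these cells were present, but Il4 and Cd40lg only in part of them. Cxcr6, which the rule used, had a level of 532 CPM (500 to 566) and 580 CPM (547 to 615), with 1 UMI in 67 and 91 cells and 4 or more in 113 and 124. Cd40lg was at 118 CPM in both libraries and had a UMI in 40.2% (34.7% to 45.8%) and 42.9% (37.8% to 48.2%) of cells. Il4 was at 54.8 CPM (44.8 to 66.4) and 67.9 CPM (56.8 to 80.5), with a UMI in 23.4% and 23.3% of cells. B cells, with median depths of 3956 and 3523 UMIs, had 0 UMIs of Il4 and Cd40lg in either library, so the shares for these genes lie above the free RNA of the droplets. Per the GENCODE annotation of GRCm38, Cxcr6 lies on chromosome 9 at 123806475 to 123811760, Il4 on chromosome 11 at 53602982 to 53618669, Cd40lg on chromosome X at 57212143 to 57224042 and Zbtb16 on chromosome 9 at 48654297 to 48836222.

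**Figure D1:**
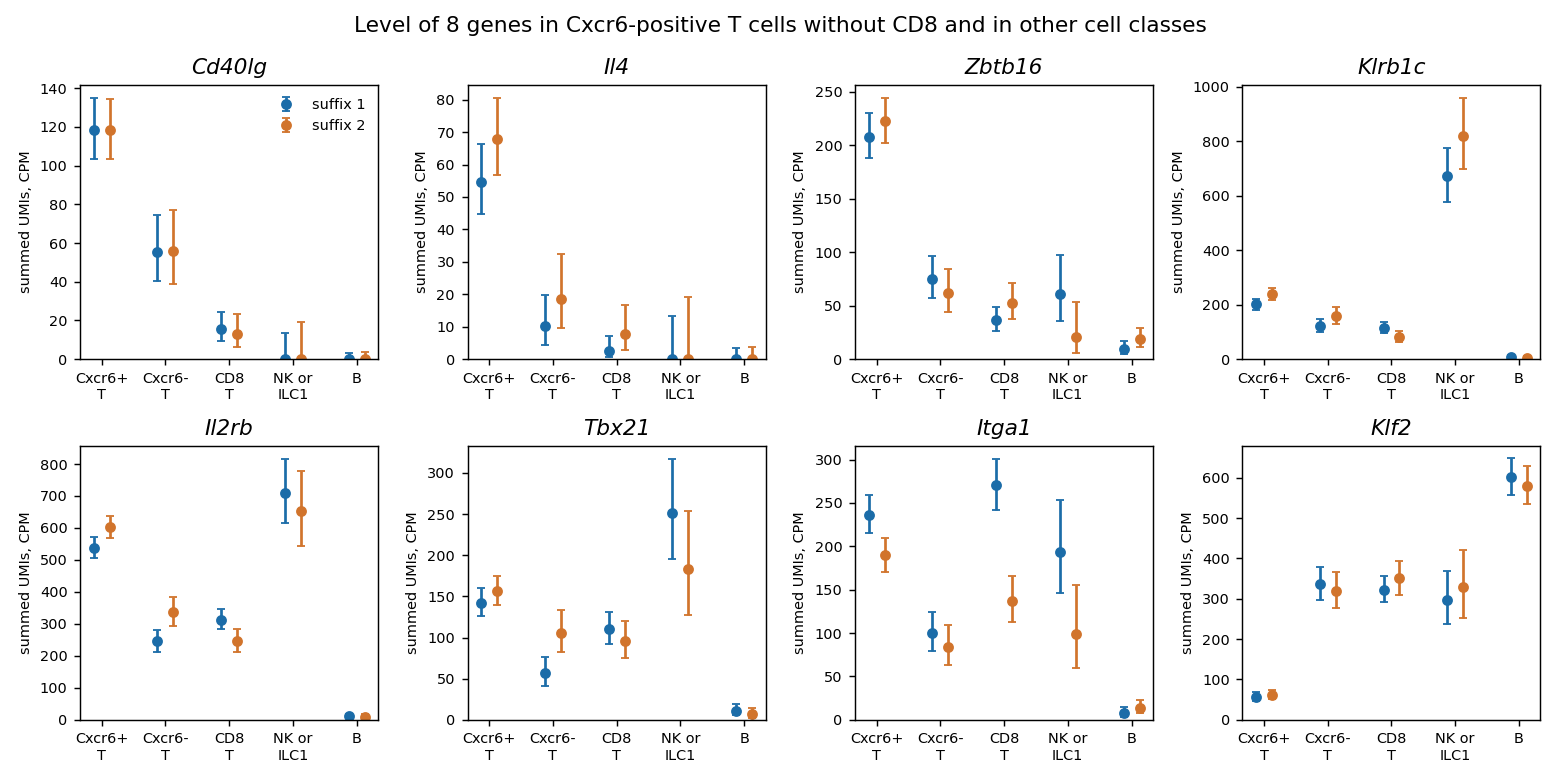
Summed UMIs of 8 genes as CPM (y axis, one scale per gene) in Cxcr6-positive T cells without CD8, Cxcr6-negative T cells without CD8, CD8 T cells, NK or ILC1 cells and B cells, blue for suffix 1 and orange for suffix 2. Points are values over all cells of a class and bars are exact Poisson 95% intervals, which cover counting error only. Il4 and Cd40lg were at 0 in B cells, and Klf2 in the Cxcr6-positive cells, at 56.9 and 61.8 CPM, lay below every other class shown.

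Genes of the NKT lineage were seen in a large part of the cells, but not in all. Zbtb16 had a level of 208 CPM (188 to 230) and 222 CPM (202 to 244), with a UMI in 49.0% and 48.2% of cells against 3.09% and 5.46% of B cells. Alb-rich droplets held Zbtb16 at 105 and 145 CPM, so hepatocyte RNA carries this gene too, although the B cells, which lie in the same droplet background, were at 9.06 and 18.5 CPM. Klrb1c, which encodes NK1.1 in mice that carry the antigen, was at 201 and 237 CPM against 671 and 820 CPM in NK or ILC1 cells, a class that was chosen partly on this gene. It had a UMI in 51.3% and 59.8% of the chosen cells.

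Il2rb, the beta chain of the receptor for IL-2 and IL-15 on which NKT and NK cells depend, was at 538 and 602 CPM and had a UMI in 84.8% and 86.4% of cells, a larger share than Zbtb16 and Klrb1c. Tbx21, the gene of T-bet, was at 142 and 156 CPM. Slamf6, a receptor of the family that steers NKT cell development in the thymus, was lower than in Cxcr6-negative T cells, at 57.9 and 53.5 CPM against 200 and 189 CPM. Of the V genes used by invariant NKT cells, Trav11 had 6 and 3 UMIs and Trbv13-2 had 11 and 13. Reads of a 3' library start at the end of the transcript and rarely reach V genes, so these counts do not show how many of the cells carry the invariant receptor. The cells are therefore named here by the rule, as Cxcr6-positive T cells, and not as NKT cells.

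Hepatocyte RNA was present in every chosen cell, and markers of other types in part of them. Alb was at a mean of 64.8 and 66.2 UMIs per cell, while B cells held 57.4 and 75.9. The 15 hepatocyte genes together took 5.42% and 4.75% of the UMIs, with at least 134 and 58 UMIs in each cell. Of the B and plasma cell list, Cd79a was at 0 in both libraries by the rule and Ms4a1 had 1 UMI in each, while 5 or more UMIs of the 11 genes together were seen in 5.38% and 5.54% of cells. The 13 macrophage and monocyte genes together reached 5 UMIs in 17.4% and 20.2% of cells, a list that holds Ccr2 and Ly6c2, which T cells also express, and Marco had 0 and 1 UMIs. The 11 NK cell and ILC genes together reached 5 UMIs in 41.5% and 44.0% of the chosen cells and in 52.7% and 46.7% of Cxcr6-negative cells, a list that includes genes of T cells with innate features. Within it, Tyrobp was at 170 and 171 CPM and Fcer1g at 155 and 174 CPM, while Eomes had 0 and 2 UMIs and Klra4 and Klra8 had 0 in both libraries, against 452 and 412 CPM and 434 and 554 CPM in NK or ILC1 cells.

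Cells with 3 or more UMIs of 15 genes of B cells, macrophages, monocytes, neutrophils, plasmacytoid dendritic cells, endothelium and red cells together were called doublet-like. They were 40 (12.7%) of the chosen cells with suffix 1 and 20 (5.54%) with suffix 2. Hbb-bs, a haemoglobin gene, was seen in 35 of the 40 and in 6 of the 20. Haemoglobin was concentrated in very few cells: of 5603 and 6612 Hbb-bs UMIs, 2671 and 3353 lay in a single cell.

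Most T cells without CD8 in these livers were Cxcr6-positive. A Cxcr6 UMI was found in 68.4% (63.9% to 72.6%) of 462 T cells without CD8 with suffix 1 and in 72.8% (68.6% to 76.7%) of 496 with suffix 2. CD8 T cells came next, with 41.7% (34.6% to 49.1%) of 187 and 47.3% (37.8% to 57.0%) of 112 cells, then NK or ILC1 cells with 26.7% (16.1% to 39.7%) of 60 and 20.9% (10.0% to 36.0%) of 43, and the intervals of the last pair overlapped with suffix 1. B cells had a Cxcr6 UMI in 2.06% and 1.64% and macrophages in 0.332% and 0.996%, at median depths of 9378 and 7142 UMIs for the latter. The share was higher in deeper T cells without CD8, with 65.3% and 71.5% from 2500 to under 5000 UMIs and 75.6% and 77.3% from 5000 UMIs. After each cell was thinned to 1000 UMIs it was 32.0% and 35.3%, so a cell without a Cxcr6 UMI may still express the gene. The chosen cells made up 48.7% (44.8% to 52.6%) and 59.4% (55.3% to 63.3%) of all T cells, CD8 T cells included.

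The limits of the rule cut through few cells except at Cxcr6, CD8 and Cd79a. Just inside, 10 and 4 cells had exactly 2 Cd3 UMIs, 2 and 8 cells had 20% to 25% mitochondrial UMIs, and no cell had under 1500 UMIs. Just outside, 7 and 2 barcodes had 1 Cd3 UMI, 4 and 6 had 5 or more C1q UMIs, 9 and 15 Cxcr6-positive T cells had a Cd79a UMI, and 78 and 53 Cxcr6-positive T cells had a CD8 UMI.

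**Figure D2:**
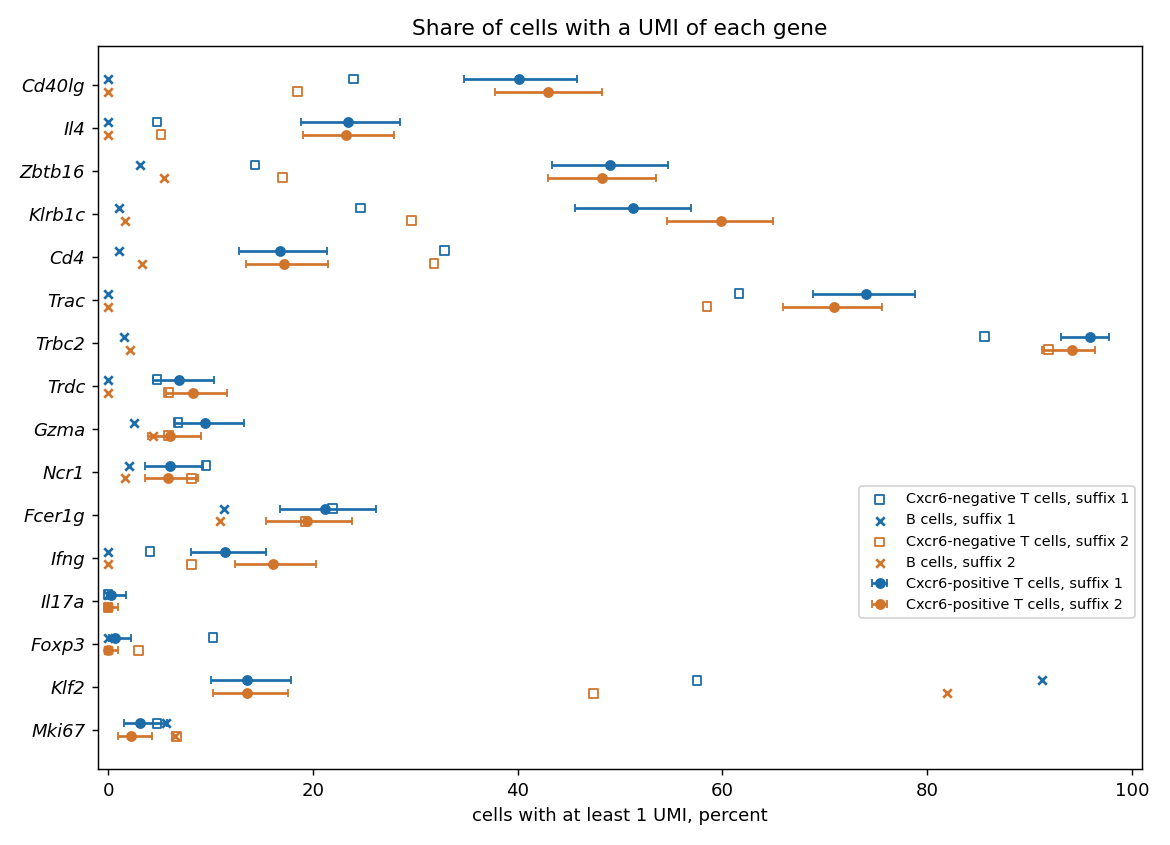
Percent of cells with at least 1 UMI (x axis) of 16 genes in Cxcr6-positive T cells (filled circles with exact binomial 95% intervals), Cxcr6-negative T cells (open squares) and B cells (crosses), blue for suffix 1 and orange for suffix 2. Cd40lg, Il4, Zbtb16 and Klrb1c were seen in a larger share of Cxcr6-positive cells than of the other classes shown, while Klf2 was seen in 13.6% and 13.6% of them against 57.5% and 47.4% of Cxcr6-negative cells.

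The nearest cells for comparison were the T cells without CD8 that had no Cxcr6 UMI, 146 with suffix 1 and 135 with suffix 2, with median depths of 4356 and 4022 UMIs. A gene was counted as past the limit when its CPM, with 3 UMIs added to each sum, differed at least 2-fold in the same direction in both libraries. Because the rule split these cells by Cxcr6, the comparison is a description with no test. Of 8979 genes with at least 20 UMIs over both groups in each library, 30 (0.334%), Cxcr6 itself included, were higher and 86 (0.958%) were lower in the Cxcr6-positive cells.

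Of the gene lists compared, that of naive and recirculating T cells had the lowest median ratio in both libraries. Of 12 listed genes with enough UMIs, 8 were lower in both libraries, among them Ccr7, Tcf7, Lef1, Klf2, S1pr1, Dapl1 and Il6ra, and none was higher, with a median log2 ratio of -1.70 and -1.84, beside -0.07 and -0.07 over all genes tested. Klf2, a transcription factor that keeps the exit receptor S1pr1 expressed, was at 56.9 CPM (46.7 to 68.7) and 61.8 CPM (51.2 to 73.8) against 336 and 319 CPM in Cxcr6-negative cells. S1pr1 itself was at 19.5 and 15.4 CPM against 82.1 and 71.3 CPM.

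Other genes of the list had the same direction, with exceptions. Tcf7, a transcription factor of naive and stem-like T cells, was at 48.5 and 46.8 CPM against 213 and 133 CPM. Ccr7, the receptor that guides T cells to lymph nodes, had 36 UMIs with suffix 1, of which 18 lay in 1 cell, and 1 UMI with suffix 2. Dapl1 had 2 and 0 UMIs, against 32.8 and 68.2 CPM in Cxcr6-negative cells. Lef1, a partner of Tcf7, was at 147 and 174 CPM against 378 and 384 CPM. Il7r, the receptor for the survival cytokine IL-7, was at 349 and 440 CPM against 591 and 507 CPM, which is under 2-fold in each library. Ccr9, a gut homing receptor, was at 54.8 against 49.2 CPM with suffix 1 and at 71.0 against 7.75 CPM with suffix 2.

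Of the genes of tissue-resident lymphocytes few were past the limit. Apart from Cxcr6, which split the groups, 2 of 12 measured genes were 2-fold higher in both libraries (Itga1 and Zfp683) and none was lower, with median log2 ratios of 0.69 and 0.75. Itga1, the collagen-binding integrin chain CD49a, was at 236 CPM (215 to 259) and 189 CPM (170 to 210) against 99.8 and 83.7 CPM. Zfp683, the gene of the residency factor Hobit, was at 17.9 and 21.1 CPM against 3.79 and 6.20 CPM. P2rx7, an ATP-gated channel of resident T cells, came close to the limit, at 145 and 169 CPM against 58.1 and 83.7 CPM, as did Rgs1, a brake on chemokine receptor signalling, at 128 and 129 CPM against 68.2 and 46.5 CPM. Cd69, the usual surface marker of resident cells, differed little, at 69.5 and 62.8 CPM against 65.7 and 52.7 CPM. When doublet-like cells were left out of both groups, no gene of this list other than Cxcr6 was past the limit in both libraries, while the naive list had 8 lower genes and 1 higher gene.

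Among the NKT lineage list, 2 of 9 measured genes were higher in both libraries (Zbtb16 and Il4) and 1 was lower (Slamf6). Zbtb16 was 2.79 times (2.12 to 3.74) the level of Cxcr6-negative cells with suffix 1 and 3.59 times (2.59 to 5.09) with suffix 2. Il4 was 5.42 times (2.65 to 12.9) and 3.65 times (2.02 to 7.25), with 10.1 and 18.6 CPM in the Cxcr6-negative cells. Cd40lg was 2.13 times (1.54 to 3.02) and 2.12 times (1.49 to 3.11), at 55.6 and 55.8 CPM there, which with 3 UMIs added is a log2 ratio of 1.02 and 0.99, just under 2-fold in the library of suffix 2. It was at 15.4 and 12.7 CPM in CD8 T cells. After thinning to 1000 UMIs per cell, a Cd40lg UMI was seen in 15.8% and 13.8% of Cxcr6-positive and 4.79% and 5.93% of Cxcr6-negative cells.

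Several of the larger differences were in genes seldom used as T cell markers. The 12 highest were ranked among genes that reached 100 CPM at a level of at least 2 times that of Alb-rich droplets, which leaves out Zbtb16, and without genes of the rule. They began with Kcnq5, which encodes a voltage-gated potassium channel, at 1389 and 1609 CPM against 408 and 600 CPM. B cells also held Kcnq5 UMIs, and subtracting their level in the same library left 1093 and 1364 CPM. Atp8a2, a phospholipid flippase gene, was at 462 and 519 CPM against 181 and 170 CPM. Ckb, brain-type creatine kinase, was at 121 and 163 CPM against 24 and 66.6 CPM. Lyst, the lysosomal trafficking gene mutated in beige mice, was at 409 and 594 CPM against 173 and 259 CPM. The rest were Socs2, Itga1, Tmem273, Il12rb2, Rcbtb2, Cd40lg, Gm19585 and St6galnac3, with log2 ratios between 0.96 and 1.5 in each library. Il12rb2, the inducible chain of the receptor for IL-12, a cytokine that drives interferon gamma, was at 150 and 163 CPM against 68.2 and 71.3 CPM.

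The 12 lowest by the same measure began with Aff3, which encodes a nuclear protein of lymphoid cells, at 24.7 and 50.9 CPM against 294 and 305 CPM. Klf2 followed, and then Fgf13, at 28.4 and 19.0 CPM against 115 and 99.2 CPM. Itga4, the alpha 4 integrin chain that binds VCAM-1 and osteopontin, was at 114 and 131 CPM against 336 and 472 CPM. Cd4, the co-receptor of helper T cells, was at 35.8 CPM (27.8 to 45.4) and 43.2 CPM (34.5 to 53.5) against 98.5 and 115 CPM, and a UMI of Cd4 was seen in 16.8% and 17.2% of the chosen cells. The others were Sidt1, Slamf6, Rasa3, Tcf7, Gpr183, Dipk1a and Gm8369. Aff3, Klf2, Rasa3, Itga4, Gpr183, Dipk1a and Gm8369 were also at 136 to 685 CPM in B cells.

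**Figure D3:**
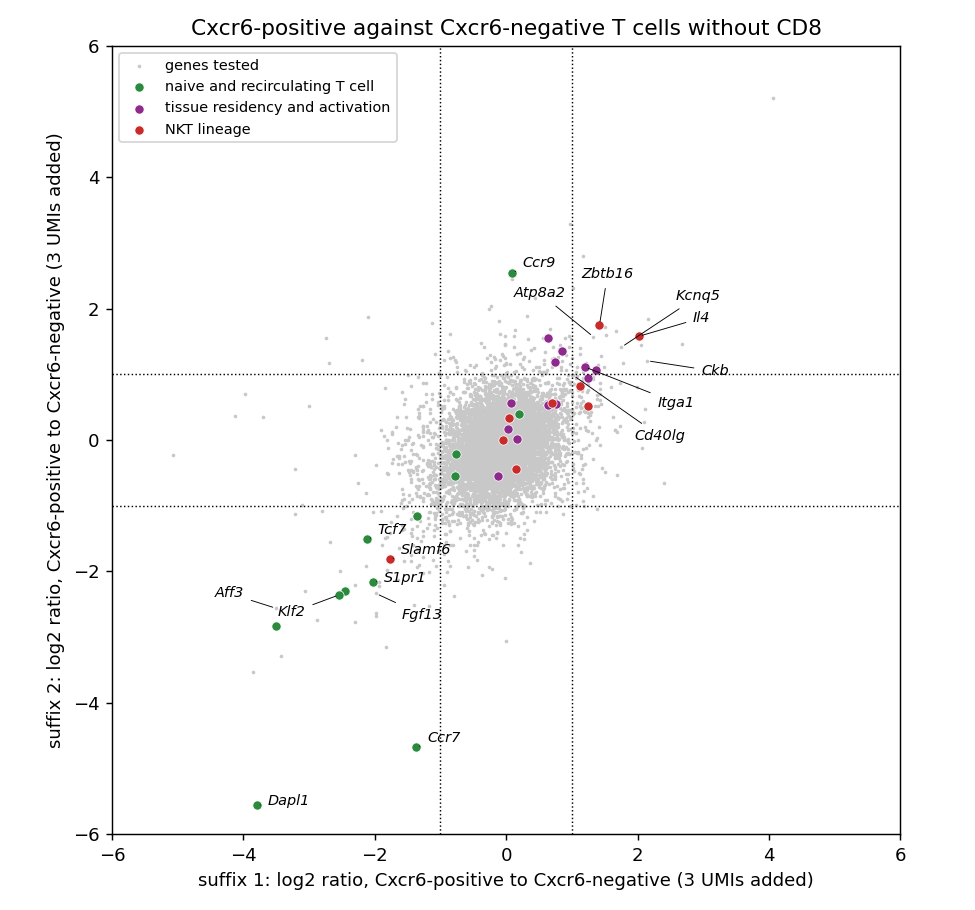
Log2 ratio of CPM in Cxcr6-positive over Cxcr6-negative T cells without CD8 (3 UMIs added to each sum) with suffix 1 (x axis) and suffix 2 (y axis) for 8978 genes, Cxcr6 left out. Grey points are all genes tested, green the naive and recirculating list, purple the residency list and red the NKT list, and dotted lines mark 2-fold. Klf2, S1pr1, Tcf7 and Dapl1 lie below 2-fold on both axes, and Zbtb16, Il4, Kcnq5 and Itga1 above it.

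The secreted and surface signals of the cells were led by few genes. Of 11 measured cytokine and TNF-family ligand genes, 1 was higher in both libraries (Il4) and 1 was lower (Tnfsf8). Ccl5, a chemokine of memory and cytotoxic lymphocytes, was the highest of the genes named in this paragraph at 2440 and 2237 CPM, which lay below the 6807 and 6110 CPM of CD8 T cells. Ltb, a lymphotoxin chain, was at 558 and 605 CPM, but B cells were also at 387 and 318 CPM. Xcl1, a chemokine that attracts cross-presenting dendritic cells, was at 228 and 183 CPM with a UMI in 54.1% and 46.8% of cells. Fasl, the death ligand, was at 105 and 95.2 CPM against 50.5 and 48.0 CPM in Cxcr6-negative cells.

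Effector cytokines other than Il4 were sparse, except Ifng with suffix 2, whose interval overlapped that of Il4. Ifng, the gene of interferon gamma, was seen in 36 cells with suffix 1 and 58 with suffix 2, at 27.4 CPM (20.4 to 35.9) and 57.1 CPM (47.0 to 68.8), while the Cxcr6-negative cells were at 26.5 and 24.8 CPM. Tnf was at 16.9 and 13.9 CPM. Tnfsf8, the gene of CD30 ligand, was at 7.90 and 12.4 CPM against 75.8 and 63.5 CPM in Cxcr6-negative cells. Il5, Il13, Il22 and Areg had 0 UMIs in both libraries, which allows up to 1.58 and 1.54 CPM each, so type 2 cytokines other than Il4 were not detectable at this depth. Il17a had 6 UMIs in 1 cell with suffix 1 and 0 with suffix 2.

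Chemokine receptors and cytokine receptors of type 1 lymphocytes were present. Cxcr3, the receptor for interferon-induced chemokines, was at 136 and 147 CPM, and Ccr2 at 146 and 184 CPM. Of 14 measured helper lineage factors and cytokine receptors only Il12rb2 was 2-fold higher than in Cxcr6-negative cells in both libraries, and none was lower, or 1 without doublet-like cells. Id2, a transcriptional regulator of innate-like and memory lymphocytes, was the most abundant of that list's transcription factors at 871 and 963 CPM against 384 and 496 CPM. Gata3, the type 2 helper factor, was at 71.6 and 94.2 CPM. Cd226, an activating receptor for nectin-family ligands, was at 718 and 855 CPM against 321 and 452 CPM, and Icos, a co-stimulatory receptor, at 149 and 119 CPM against 88.4 and 88.3 CPM. Pdcd1, the gene of PD-1, had only 10 and 13 UMIs and Lag3 had 6 and 6.

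The cytotoxic genes named here lay below their level in NK or ILC1 cells, and none of 10 measured was past 2-fold in both libraries, with median log2 ratios of 0.90 and 0.29. Nkg7, a granule membrane gene, was at 596 and 644 CPM, against 312 and 445 CPM in Cxcr6-negative cells and 1572 and 1582 CPM in NK or ILC1 cells. Prf1, the pore-forming perforin, was at 31.6 and 39.1 CPM. Gzmb was at 131 and 113 CPM. Gzma was at 259 and 132 CPM, but it lay in only 30 and 22 cells, and 70 and 40 of its 492 and 257 UMIs came from a single cell. No gene of the 14 measured NK receptors was past 2-fold in both libraries, with median log2 ratios of 0.23 and -0.17, while 1 was lower without doublet-like cells. Of 7 measured genes of regulatory T cells, 2 were lower in both libraries (Ctla4 and Ikzf2) and 1 was without doublet-like cells, and Foxp3, the defining factor, had 4 and 0 UMIs, against 27.8 and 6.20 CPM in Cxcr6-negative cells.

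A UMI of Mki67 or Top2a, which dividing cells transcribe, was seen in 18 cells (5.70%) with suffix 1 and 12 cells (3.32%) with suffix 2. These cells were deeper, with medians of 9350 and 9438 UMIs against 4652 and 4307 in the rest. B cells had a UMI of either gene in 8.25% and 8.20%. At these depths the shares do not bound how many of the cells were cycling. Of 9 measured proliferation genes 1 was 2-fold lower than in Cxcr6-negative cells in both libraries and none was higher, while without doublet-like cells none was lower. Their median log2 ratios were -0.98 and -0.72, beside -0.07 and -0.07 over all genes tested. Of 10 measured genes that respond to tissue digestion and stress, none was past 2-fold in both.

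The cells were not uniform. Small groups within them were set apart by a UMI of a chosen gene, and the shares of cells with other genes are given with no test, since all genes came from the same cells. Trdc, the constant region of the delta chain, was seen in 22 cells (6.96%) with suffix 1 and 30 cells (8.31%) with suffix 2 and in no B cell. Trac was seen in 18.2% and 20% of these cells against 78.2% and 75.5% of the other chosen cells, and Tcrg-C1, a gamma chain constant region, in 45.5% and 63.3% against 22.4% and 21.8%. Gamma-delta T cells carry gamma and delta chains in place of alpha and beta chains on their surface, and Trbc2 was still seen in 86.4% and 86.7%. Cd5, which dampens receptor signalling, was seen in 9.09% and 3.33% against 30.3% and 24.5%, and Il4 in 4.54% and 13.3% against 24.8% and 24.2%. Depths were close, with medians of 4622 and 3984 UMIs in the Trdc-positive cells against 4800 and 4328 in the rest. Part of the Trdc-positive cells also had a UMI of the NK receptor gene Ncr1 and belong to the group with NK-type genes described below. Whether the Trdc-positive cells were gamma-delta T cells was not tested.

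A smaller group carried genes of type 17 lymphocytes. Il23r (the receptor for IL-23), Blk (a Src-family kinase) or Cd163l1 (a scavenger receptor of gamma-delta T cells) had a UMI in 16 cells (5.06%) with suffix 1 and 11 cells (3.05%) with suffix 2. B cells express Blk and were positive in 54.1% and 56.8%, so this choice does not separate a type 17 cell from a droplet that also held B cell RNA. Il7r was seen in 100% and 90.9% of the group against 58.0% and 63.1% of the rest, and Il1r1 in 56.2% and 72.7% against 3% and 3.43%. Zbtb16 was seen in 56.2% and 54.5% of the group against 48.7% and 48% of the rest. Klrb1c, Nkg7 and Ccl5 were seen in smaller shares. Klrb1c was seen in 6.25% and 9.09% against 53.7% and 61.4%, Nkg7 in 25% and 27.3% against 85.7% and 88.6%, and Ccl5 in 25% and 36.4% against 84.7% and 90.3%.

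A group with NK-type genes was also present. Ncr1, which encodes the NK receptor NKp46, had a UMI in 19 cells (6.01%) with suffix 1 and 21 cells (5.82%) with suffix 2, against 2.06% and 1.64% of B cells. Fcer1g, a signalling adaptor, was seen in 100% of these cells in both libraries against 16.2% and 14.4% of the rest, Gzma in 78.9% and 66.7% against 5.05% and 2.35%, and Ccl4 in 47.4% and 47.6% against 2.02% and 2.65%. Trac was seen in 15.8% and 28.6% against 77.8% and 73.5%, Trdc in 42.1% and 23.8% against 4.71% and 7.35%, and Icos in 10.5% and 23.8% against 48.1% and 39.4%. Only 1 and 2 of these cells were doublet-like, but that gene list holds no NK cell gene and cannot mark a T cell with an NK cell. Whether such a droplet held 1 cell of mixed type, a T cell with an NK cell or an NK cell with Cd3 UMIs was not tested. Ncr1-positive cells made up 15 of the 30 and 14 of the 22 Gzma-positive cells.

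**Figure D4:**
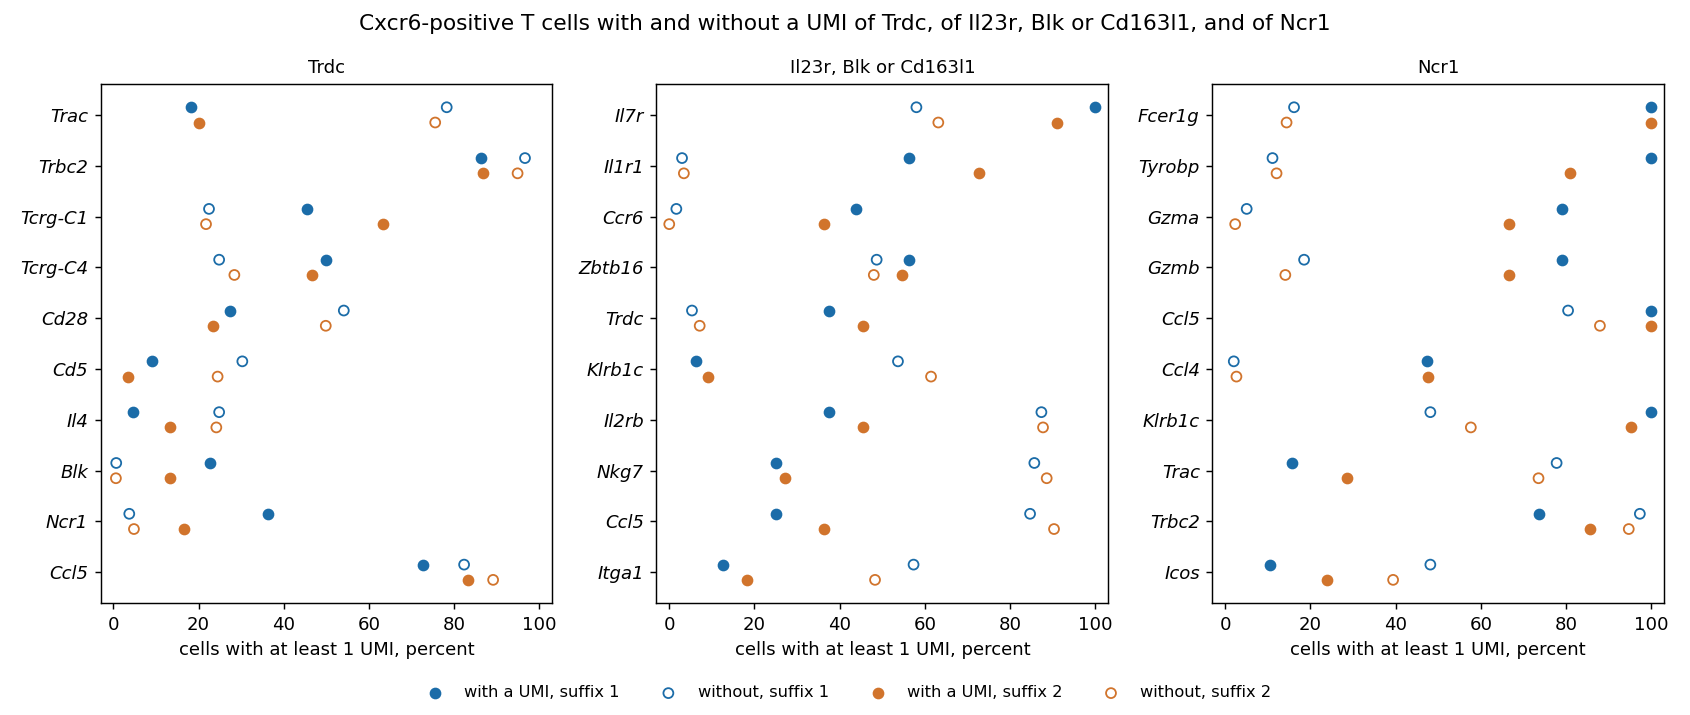
Percent of cells with at least 1 UMI of the gene on the y axis, among Cxcr6-positive T cells with (filled) and without (open) a UMI of Trdc, of Il23r, Blk or Cd163l1, and of Ncr1, blue for suffix 1 and orange for suffix 2. The 22 and 30 Trdc-positive cells rarely had a Trac UMI, the 16 and 11 cells of the middle group mostly had Il7r but seldom Klrb1c, and all 19 and 21 Ncr1-positive cells had Fcer1g.

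Cells with a UMI of Zbtb16, Il4 or Cd4 were also set apart. The 155 and 174 Zbtb16-positive cells had Ncr1 in 1.29% and 2.30% against 10.6% and 9.09% of the cells without a Zbtb16 UMI, and Gzma in 3.87% and 1.72% against 14.9% and 10.2%. Their Ccl5 level was 1542 and 1494 CPM against 3640 and 3228 CPM. Il4 was seen in 29.0% and 29.9% of them against 18% and 17.1%, and Icos in 58.1% and 50% against 34.2% and 27.8%. Zbtb16-positive cells were also deeper, with medians of 5151 and 4636 UMIs against 4487 and 4017, and the part of this gap in the higher shares of Il4 and Icos was not tested, while the shares of Ncr1 and Gzma were lower in the deeper cells. Doublet-like cells were 28 and 14 of the Zbtb16-positive cells, out of 40 and 20 in all, and 15 and 7 of the Il4-positive cells. Of the 74 and 84 Il4-positive cells, 60.8% and 61.9% had a Zbtb16 UMI against 45.5% and 44.0% of the rest. Cd4-positive cells, 53 and 62 in number, had Zbtb16 in 60.4% and 61.3% against 46.8% and 45.5%, and Cd40lg in 60.4% and 54.8% against 36.1% and 40.5%, at medians of 5503 and 4624 UMIs against 4576 and 4292.

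The level of most genes was close between the suffixes. Among 10274 genes with at least 20 UMIs over both, 200 (1.95%) were at least 2-fold higher with suffix 1 and 156 (1.52%) at least 2-fold lower, with a median log2 ratio of 0.03. Each suffix is 1 library, so these values describe the libraries, and no test between animals was possible. Alb-rich droplets were also 2-fold higher with suffix 1 for 49 of the 200 and 2-fold lower for 57 of the 156. The share of all genes tested with such a ratio in Alb-rich droplets is not given here, so whether these overlaps exceed it cannot be told. Mup20, a urinary protein gene of hepatocytes, was at 10650 and 3753 CPM in the chosen cells, Mup3 at 793 and 4190 CPM and the acute phase gene Orm1 at 4.74 and 233 CPM. Among the genes past 2-fold, 23 and 34 had a level at least 2 times that of Alb-rich droplets in both libraries.

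The marker genes had ratios near 1. The ratio of suffix 1 to suffix 2 was 0.92 (0.84 to 1.00) for Cxcr6, 1.00 (0.83 to 1.21) for Cd40lg, 0.81 (0.62 to 1.05) for Il4 and 0.94 (0.81 to 1.08) for Zbtb16, intervals that cover counting error only. Klra9, an inhibitory NK receptor gene, differed by more, at 51.1 and 18 CPM in 25 and 15 cells. The same ratio was 0.48 (0.34 to 0.67) for Ifng and 0.44 (0.27 to 0.68) for Tnfsf14, the gene of the TNF-family ligand LIGHT, at 15.3 and 35.0 CPM.

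The 10 largest differences in each direction among genes of at least 100 CPM, at a level of at least 2 times that of Alb-rich droplets, were these. Higher with suffix 1 were Gzma (log2 ratio 0.96), Isg15 (0.76, at 133 and 78.2 CPM), Crip1 (0.74, at 600 and 358 CPM) and Ifi27l2a (0.59). Osbpl3, Vim, Samsn1, S100a4, Plekha5 and Tra2a followed, the last 6 between 0.43 and 0.58. Lower with suffix 1 were H2-Ab1 (-1.42), H2-Aa (-1.34), Cd74 (-1.32) and H2-Eb1 (-1.22), Mndal (-0.86, at 148 and 271 CPM), Dtx1 (-0.74, at 67.9 and 114 CPM), Ly6c2, Gab3, Lyst and Ifi203, the last 4 between -0.56 and -0.53. Mndal and Ifi203 overlap in the genome, so reads may be shared between them. B cells of the same libraries were at 110 and 34 CPM for Isg15, at 1546 and 936 CPM for Crip1 and at 191 and 236 CPM for Mndal.

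The MHC class II genes, which serve antigen presentation by B cells, macrophages and dendritic cells, lay in few cells. Cd74, the invariant chain, was at 293 and 732 CPM, with UMIs in 55 and 56 cells, of which 17 and 11 were doublet-like. Without the single highest cell, which held 183 and 357 of the Cd74 UMIs, the level was 199 and 556 CPM, and without doublet-like cells it was 149 and 312 CPM. Cd74-positive cells had medians of 6699 and 5401 UMIs against 4586 and 4203, and Tyrobp, an adaptor of myeloid and NK cells, was seen in 34.5% and 33.9% of them against 12.6% and 12.8%. Without doublet-like cells the log2 ratio of suffix 1 to suffix 2 was -1.05 for Cd74, -1.85 for H2-Ab1, -1.54 for H2-Aa and -1.65 for H2-Eb1. The doublet-like list holds no gene chosen for conventional dendritic cells, so this step cannot remove droplets that also held such a cell. A list of 8 dendritic cell genes together reached 5 UMIs in 10.8% and 9.14% of the chosen cells. In Cxcr6-negative cells it did so in 7.53% and 2.96%.

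**Figure D5:**
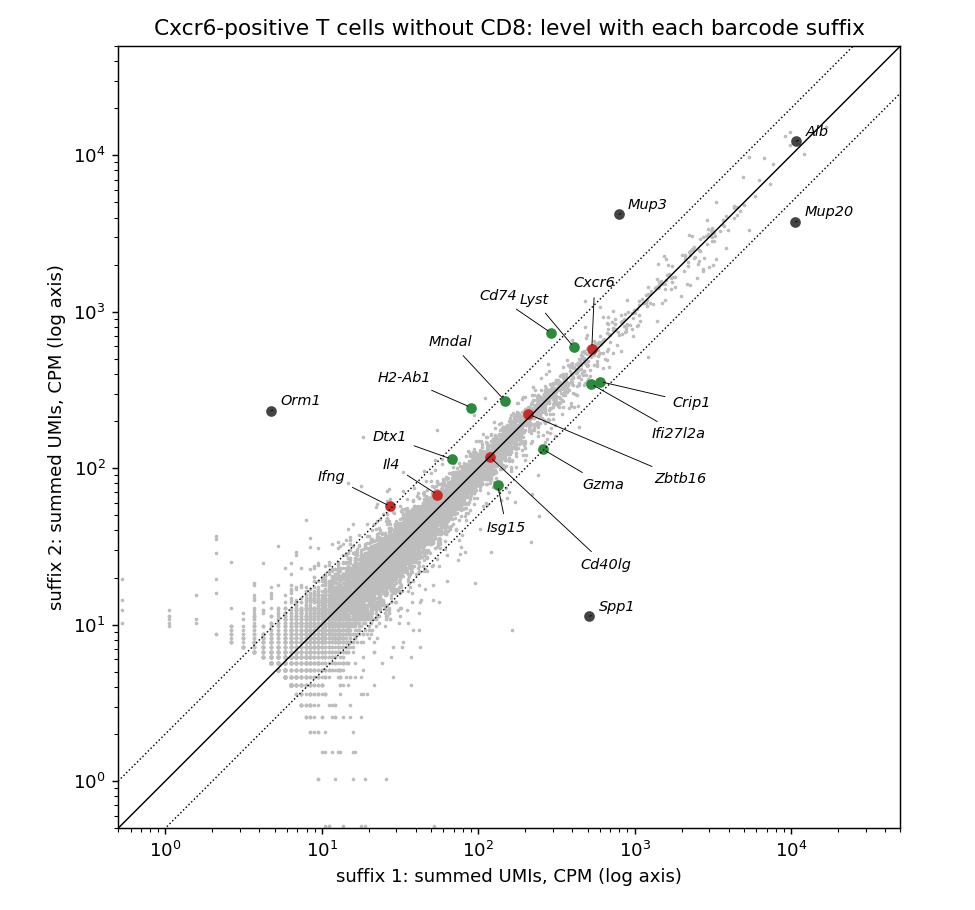
Level of 10271 genes in Cxcr6-positive T cells without CD8, as CPM of summed UMIs with suffix 1 (x axis) and suffix 2 (y axis), both on log axes, for genes with at least 1 UMI in each. The solid line marks equal levels and dotted lines 2-fold, red points are marker genes and Ifng, green points genes named for the difference between suffixes, and black points hepatocyte genes and Spp1. Cxcr6, Cd40lg, Il4 and Zbtb16 lie near the line of equal levels, and Mup20, Mup3, Orm1 and Spp1 lie beyond 2-fold.

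Osteopontin, the product of Spp1 and the subject of the study, is a secreted ligand of integrins and CD44. Spp1 was at 514 CPM with suffix 1, but 636 of its 976 UMIs lay in 1 cell, and without that cell it was at 182 CPM. With suffix 2 it had 22 UMIs (11.3 CPM). Cxcr6-negative cells were at 1792 and 9.30 CPM. Spp1 UMIs were seen in 39.9% and 5.54% of the chosen cells and in 41.2% and 8.20% of B cells, and Alb-rich droplets held 1366 and 370 CPM, so the share in T cells did not exceed that in a class that should lack the transcript. Of its receptor genes, Cd44 was at 210 and 197 CPM against 121 and 132 CPM in Cxcr6-negative cells, and Itgb3, the beta 3 integrin chain, at 57.9 and 71.0 CPM against 30.3 and 23.2 CPM. Itgb1 was at 264 and 277 CPM and Itgav at 72.7 and 40.7 CPM. Itga4, as given above, was the only gene of this list that was 2-fold lower than in Cxcr6-negative cells in both libraries.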

How the data were processed

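Liver cells of 1 Cebp KO and 1 Cebp WT mouse sample were measured by 10x 3' v3.1 single-cell RNA-seq. The authors deposited 1 joined matrix of raw UMI counts per gene and barcode, whose header names Cell Ranger 7.1.0. The submitters' processing notes also list STAR 2.7.2a, bcl2fastq 2.20.0 and the build mm10. For intronic reads, which would raise long genes such as Kcnq5, whether they were counted was not given in the sources used here. UMIs count molecules, so PCR copies add nothing. The libraries held 60048646 and 52355243 UMIs, with medians of 1515 and 2076 per barcode.

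For each class and library, deposited counts of its cells were added up and divided by the class total (CPM, per 1000000 UMIs). Exact Poisson intervals for CPM and Clopper-Pearson intervals for shares (95%) cover counting error only. A count of 0 allows 3 UMIs. Log2 ratios and calls past 2-fold had 3 UMIs added to each sum, ratios printed with an interval had none, and genes with under 20 UMIs were left out. No test was run, since each library is 1 sample and cells are not replicates. Other classes were Cxcr6-negative and CD8 T cells, NK or ILC1 cells (no Cd3 UMI, 2 or more of Ncr1 and Klrb1c), B cells (2 or more Cd79a UMIs), macrophages (5 or more C1q UMIs) and Alb-rich droplets (5000 or more UMIs, 50 or more of Alb). No doublet caller was run, and doublet-like cells were left out in an alternative. Named genes are those of fixed lists and, from genes of at least 100 CPM whose level is at least 2 times that of Alb-rich droplets, without mitochondrial, ribosomal protein and rule genes, the 12 highest and 12 lowest between classes (by the smaller difference of the libraries) and the 10 highest and 10 lowest between suffixes. Some listed genes are not reported here. The members and lists were chosen with earlier results of these data known. Other genes were named after their values were seen, where they show hepatocyte RNA or the makeup of a cell group. In simulated Poisson counts, 97.5%, 97.5% and 100% of genes changed 4-fold and tested passed 2-fold in the class comparison with suffix 1, with suffix 2 and between suffixes, and so did 1.42%, 1.97% and 0.607% of unchanged genes. The simulation had no concentration of UMIs in single cells, which these data show for several genes. Its rates therefore cover counting error only and may be too low for unchanged genes here. Gene positions are from GENCODE on GRCm38, the assembly called mm10, in which 32235 of 32285 IDs were found. Python 3.11.15, numpy 2.4.6, scipy 1.17.1, pandas 2.3.3 and matplotlib 3.10.9 were used.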

Additional observations from a re-analysis of the deposited data

Results flagged for a closer look

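Barcodes over the mitochondrial limit that otherwise met the rule were not used above. There were 11 with suffix 1 and 13 with suffix 2, with 39 and 23 UMIs of Cxcr6, which the rule requires. Of genes the rule did not use, Trac had 24 and 14 UMIs and Cd40lg 10 and 4, above the 3 UMIs that a count of 0 allows, and Il4 had 2 and 3. Their median depths were 8051 and 6670 UMIs.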

How the results depend on the processing

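Requiring 2 Cxcr6 UMIs left 249 cells with suffix 1 and 270 with suffix 2, and a share of T cells without CD8 of 53.9% and 54.4%. Keeping cells with CD8 UMIs gave 394 and 414 cells and shares of 60.7% and 68.1%. Leaving out doublet-like cells left 276 cells with suffix 1, and a mitochondrial limit of 10% left 307 with suffix 2. A minimum of 1 Cd3 UMI gave shares of 52.4% and 65.8%, and thinning to 1000 and 500 UMIs gave 32.0% and 35.3%, and 17.5% and 21.2%. The other settings moved these values by less than their counting interval.

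With a filter of 50 UMIs, 19 genes were higher and 40 lower in Cxcr6-positive than in Cxcr6-negative cells, all among the 30 and 86, and 84 were higher and 61 lower with suffix 1. With no filter, 986 were lower in Cxcr6-positive cells, and 642 were higher and 388 lower with suffix 1. With 1 UMI added, 66 genes were higher in Cxcr6-positive cells. Without doublet-like cells 18 were higher, 12 of them shared with the 30, and 102 were lower, 57 of them shared with the 86. In the comparison they were named for, all named genes kept their direction there, but Ckb, Socs2, Itga1, Tmem273 and Rcbtb2 were then under 2-fold in 1 library, as were Gm19585 and St6galnac3, and Cd40lg was under 2-fold in both (log2 ratios 0.87 and 0.87). Between suffixes 139 were then higher, 70 of them shared with the 200, and 142 lower, 68 of them shared with the 156. Without mitochondrial genes and genes of Alb-rich droplets in the total, the median log2 ratio over all genes moved from -0.07 and -0.07 to -0.14 and -0.17, and 23 genes were higher and 114 lower, 2 of them in the proliferation list.

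Of 432 values of named genes under 12 settings, 345 stayed within their counting interval. Subtracting the level in B cells gave negative values for Klf2 (-545 and -518 CPM), Itga4 (-344 and -236 CPM), Cd74 (-4853 and -4058 CPM) and, with suffix 2, Spp1 (-5.21 CPM). Leaving out the cell with the most UMIs of a gene was added after seeing the data. No paired analysis was possible because each group has 1 sample and no suffix is tied to a group. Depth limits rare transcripts most: at these totals a gene at 0 may still be at up to 1.58 and 1.54 CPM.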

Other observations

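With suffix 2, 84 of 85 S100a9 UMIs and 54 of 57 S100a8 UMIs lay in a single cell each. S100a8 is among the genes counted as higher in Cxcr6-positive cells, and so is Hbb-bt, with 514 of 916 and 787 of 1560 UMIs in 1 cell. Without doublet-like cells no gene of the neutrophil or erythroid list was 2-fold higher in both libraries.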
